A study of Drosophila melanogaster with 18 samples.

Results

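Muscle Z-disc and accessory genes were followed in fly heads through their 17 probe sets on an Affymetrix array. The members were Actn, Zasp52, Zasp66, Mlp60A, Mlp84B, sls, Strn-Mlck, Mf and Argk1, 9 genes in all, and each probe set was included because the platform annotation gave it exactly 1 gene symbol and that symbol was one of these. They made up 17 of the 14010 probe sets in the table, of which 12444 carried a single symbol, for 10845 genes in all. The 18 samples were whole heads of Canton-S flies, a wild-type laboratory strain, aged 2 to 5 days, with about 60 heads pooled per sample and 6 samples labelled as biological replicates in each of 3 groups. Naive flies had 50 min of humidified air. The other groups had the same air period and then either 1 exposure or 5 exposures of 40 min to 50% ethanol vapor. The labels state neither the sex of the flies nor the interval between exposures, and no air-only control of matched duration was analysed here. A whole head holds muscle next to brain, eye, fat body and cuticle, and the arrays read all of it together.

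In striated muscle the Z-disc is the plate at which the thin actin filaments of neighbouring sarcomeres, the contractile units, are cross-linked back to back. Alpha-actinin makes the cross-links, and PDZ-domain proteins of the Zasp family and some LIM-domain proteins bind at the same plate. Titin-like proteins run from it toward the thick myosin filaments as springs. Accessory proteins sit along the thick filament or keep ATP supplied during contraction. In the fly head such muscle moves the proboscis, the antennae and the neck.

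Heads after 5 exposures had less signal than naive heads for Actn, Zasp66, Mf and Argk1, by 11.3% to 37.6%, while Mlp60A, Mlp84B, Zasp52, sls and Strn-Mlck passed no test. After 1 exposure none of the 9 genes passed. Between 5 and 1 exposures Actn and Zasp66 were lower after 5. These statements rest on limma, a linear model fitted to log2 intensities of 9317 probe sets on all 18 arrays, with calls at a Benjamini-Hochberg adjusted p under 0.05 over all of them. Of the 17 member probe sets 14 were bright enough to be tested, and the other 3 are given as intensities only. Intensities are on the linear scale of the deposited table, are given as mean ± SD of 6 arrays, and are compared between groups for 1 probe set at a time, never between probe sets. In whole heads, fewer muscle cells and less of a transcript per cell cannot be told apart.

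**Figure D1:**
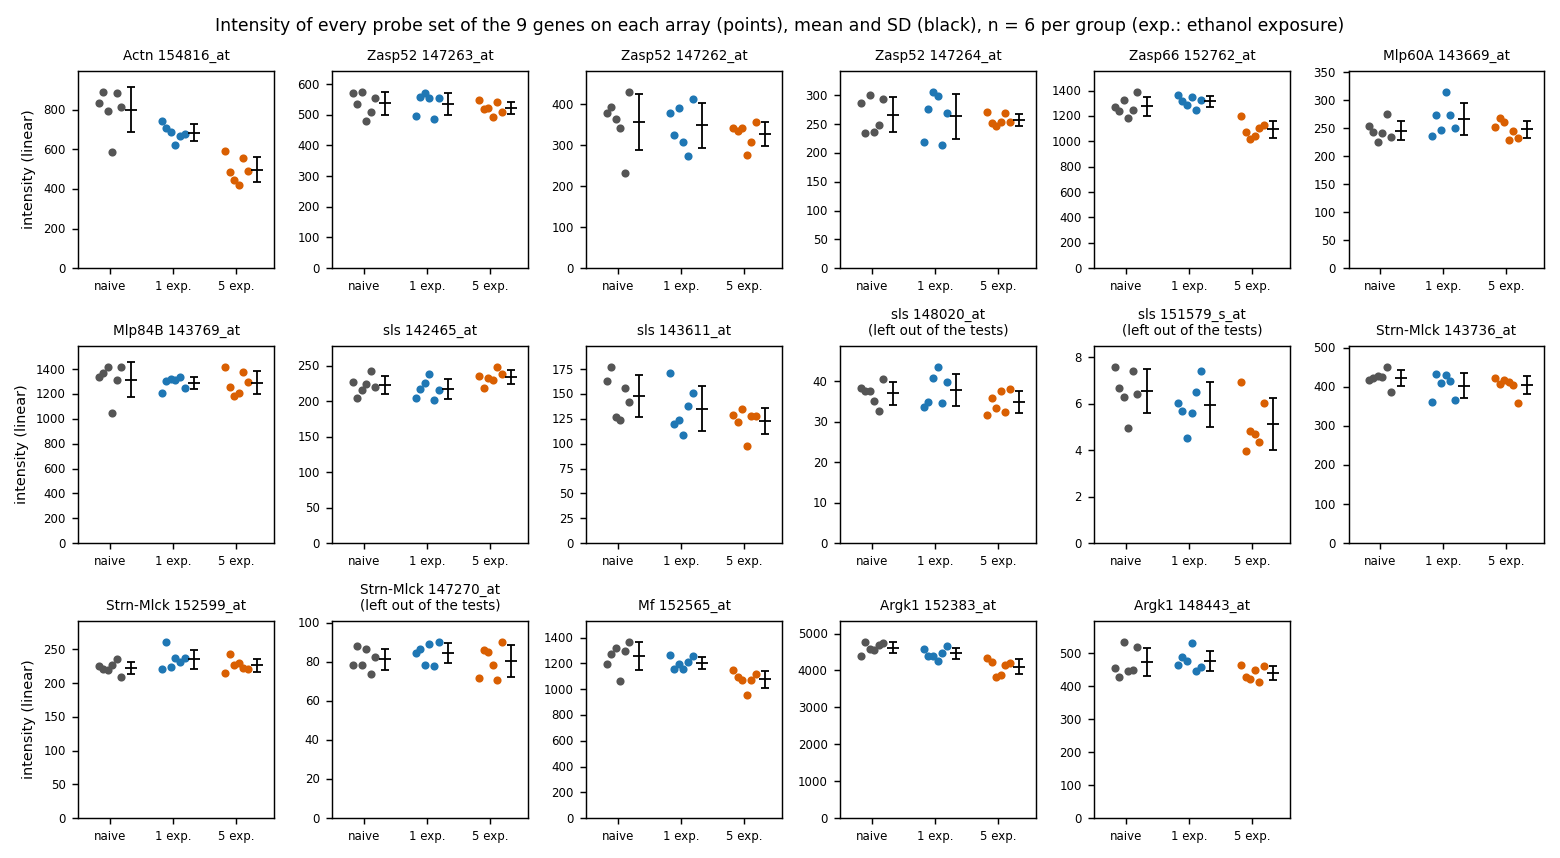
Intensity (linear, each panel on its own axis from 0) of all 17 probe sets on each of the 18 arrays, as points by group, with the mean and SD of 6 arrays in black. The 5-exposure points of Actn lie between 418 and 591 and those of 1 exposure between 619.9 and 743, while the groups of Mlp84B and of the 3 Zasp52 probe sets lie over each other.

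Actn encodes alpha-actinin, the actin cross-linker that defines the Z-disc. Its single probe set, 154816_at, read 584 at the lowest, 822 at the median and 889.9 at the highest naive array. After 1 exposure the lowest, median and highest arrays read 619.9, 684 and 743. After 5 exposures they read 418, 486 and 591. The 5-exposure arrays thus lay below every 1-exposure array and below every naive array except naive replicate 4. That array, at 584, stood far under the next naive value of 793, and only 5-exposure replicate 1, at 591, lay above it. The fitted fold of 5 exposures over naive was 0.624 (95% interval 0.547 to 0.711, limma adjusted p = 5.07e-05), the 29th lowest fold of all 9317 probe sets. Against 1 exposure the fold was 0.723 (0.634 to 0.824, limma adjusted p = 0.00149). The level after 1 exposure was 0.863-fold of naive (0.757 to 0.984), which did not pass over all probe sets (limma adjusted p = 0.259). Without naive replicate 4 that last comparison did pass, with a log2 fold change of -0.30 in place of -0.21 (limma adjusted p = 0.0156). The lowest 1-exposure array, at 619.9, was also replicate 4 of its group, and it stayed in that fit. That fit gave the only call on a member after 1 exposure in any of the alternatives run.

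Zasp66 and Zasp52 encode PDZ-domain proteins that bind alpha-actinin at the Z-disc, and only Zasp66 was called. Zasp66 (152762_at) read 1184, 1258 and 1390.2 at the lowest, median and highest naive array, 1243, 1321 and 1366 after 1 exposure, and 1017, 1089 and 1203 after 5 exposures. All 6 of the 5-exposure arrays lay under the lowest 1-exposure array, and only replicate 1, at 1203, reached into the naive range. The fall from naive was 14.2%, a fold of 0.858 (0.803 to 0.916, limma adjusted p = 0.00352). From 1 exposure to 5 it was 16.8%, a fold of 0.832 (0.779 to 0.888, limma adjusted p = 0.000440). After 1 exposure alone the fold was 1.03 (0.965 to 1.10, limma adjusted p = 0.742), so the 1-exposure mean did not lie below the naive mean.

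Zasp52 had 3 probe sets, and none was called in any comparison. The first, 147263_at, read 537 ± 36.7 in naive, 536 ± 35.9 in 1-exposure and 523 ± 20.2 in 5-exposure heads. Its fold after 5 exposures was 0.974 (0.906 to 1.05). The second, 147262_at, read 357 ± 68.2, 348 ± 54.0 and 327 ± 29.6 in the same order, with a fold of 0.930 (0.783 to 1.10), and the third, 147264_at, 266 ± 30.1, 264 ± 39.1 and 258 ± 10.2, with a fold of 0.972 (0.861 to 1.10). The groups overlapped for each of these probe sets. The intervals of all 3 probe sets overlapped that of Zasp66 against naive (0.803 to 0.916), and the difference between the genes was not tested. Naive replicate 5 was the lowest array for 147262_at, at 232. With 1 array left out, the log2 fold change of 147262_at after 5 exposures, -0.11 with all arrays, ran from -0.22 without naive replicate 5 (limma adjusted p = 0.199) to -0.045 without naive replicate 6, and was -0.057 without five-exposure replicate 4.

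Mlp60A and Mlp84B encode muscle LIM proteins, zinc-binding adaptors of muscle. Mlp84B (143769_at) read 1046, 1351 and 1415 at the lowest, median and highest naive array, 1206, 1309 and 1334 after 1 exposure and 1182, 1276 and 1418 after 5 exposures. The groups overlapped throughout. The fold of 5 exposures over naive was 0.983 (0.897 to 1.08, limma adjusted p = 0.902) and the 5-exposure and 1-exposure means differed by -0.0002 on the log2 scale (-0.13 to 0.13, limma adjusted p = 0.999). Naive replicate 4 was again the lowest array, at 1046 against 1313 to 1415 in the other naive arrays, and without it the log2 fold change after 5 exposures was -0.089. Mlp60A (143669_at) read 246 ± 17.1, 266 ± 28.4 and 248 ± 15.8 over naive, 1 and 5 exposures. Its fold was 1.08 (0.986 to 1.18, limma adjusted p = 0.443) after 1 exposure and 1.01 (0.921 to 1.11, limma adjusted p = 0.954) after 5. A single 1-exposure array, at 315, lay above the rest of its group.

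The gene sls encodes sallimus, the titin-like protein that anchors thin filaments at the Z-disc and reaches toward the thick filament, and its transcripts include the kettin form. Of its 4 probe sets, 142465_at read 223 ± 13.1 in naive, 217 ± 13.8 in 1-exposure and 234 ± 10.1 in 5-exposure heads. The second, 143611_at, read 148 ± 21.0, 135 ± 22.7 and 123 ± 13.3. Their means after 5 exposures lay on opposite sides of naive, and neither passed. After 5 exposures the fold of 142465_at was 1.05 (0.981 to 1.13, limma adjusted p = 0.494), and that of 143611_at was 0.833 (0.717 to 0.969, limma adjusted p = 0.169). For 142465_at all 6 of the 5-exposure arrays were above the 1-exposure mean, with a fold of 1.08 (1.01 to 1.16, limma adjusted p = 0.214). The other sls probe sets, 148020_at at 31.7 to 43.6 and 151579_s_at at 3.98 to 7.59 over the 18 arrays, lay below the floor of 57.9 under which values carried no order here. The annotation does not name the sls transcript that each probe set reads, so they were not assigned to forms of the protein.

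Strn-Mlck encodes a large immunoglobulin-domain protein of muscle with a myosin light chain kinase domain. Its probe set 143736_at read 422 ± 20.8, 403 ± 31.4 and 404 ± 23.1 over naive, 1 and 5 exposures, and 152599_at read 223 ± 8.61, 235 ± 14.5 and 226 ± 9.73. Neither was called in any comparison. The folds after 5 exposures were 0.957 (0.886 to 1.03, limma adjusted p = 0.621) and 1.02 (0.954 to 1.08, limma adjusted p = 0.868). Both intervals lay above that of Actn (0.547 to 0.711) in the same comparison. The interval of Zasp66 (0.803 to 0.916) lay below that of 152599_at and overlapped that of 143736_at. Differences between genes were not tested. The third probe set, 147270_at, read 70.5 to 90.3 over all arrays and was left out of the tests, since its mean fell under the limit of 85.8.

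Mf encodes myofilin, a protein of the thick filament of insect muscle, and Argk1 encodes arginine kinase, which holds a reserve of high-energy phosphate for muscle and other cells with bursts of demand. Mf (152565_at) read 1067, 1286 and 1368 at the lowest, median and highest naive array, 1156, 1203 and 1262 after 1 exposure, and 958, 1085 and 1148 after 5 exposures. Naive replicate 4 was the lowest naive array, and no 5-exposure array reached any 1-exposure array. The fold of 5 exposures over naive was 0.860 (0.795 to 0.931, limma adjusted p = 0.0167), and the call was lost without five-exposure replicate 4 (limma adjusted p = 0.0537). Although the groups of 5 and 1 exposures did not overlap, the fold between them, 0.893 (0.825 to 0.966), did not pass over all probe sets (limma adjusted p = 0.0712). It did pass without naive replicate 4 (limma adjusted p = 0.0267) and in a fit of only these 2 groups (limma adjusted p = 0.0377).

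Argk1 had 2 tested probe sets. The first, 152383_at, read 4392, 4629.7 and 4779 at the lowest, median and highest naive array, 4257, 4438 and 4675 after 1 exposure and 3833, 4178 and 4332 after 5 exposures. It was the only member whose naive and 5-exposure arrays did not overlap, with a fold of 0.887 (0.839 to 0.939, limma adjusted p = 0.00754). Against 1 exposure the fold of 0.918 (0.868 to 0.971) was just outside the threshold (limma adjusted p = 0.0546), and it passed in 6 of the 10 alternatives that kept all replicates. The second probe set, 148443_at, read 473 ± 43.4, 478 ± 30.2 and 439 ± 21.8. Its fold after 5 exposures, 0.931 (0.859 to 1.01, limma adjusted p = 0.373), was on the same side of 1 and was not called, so the call on Argk1 rests on 1 of its 2 probe sets.

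**Figure D2:**
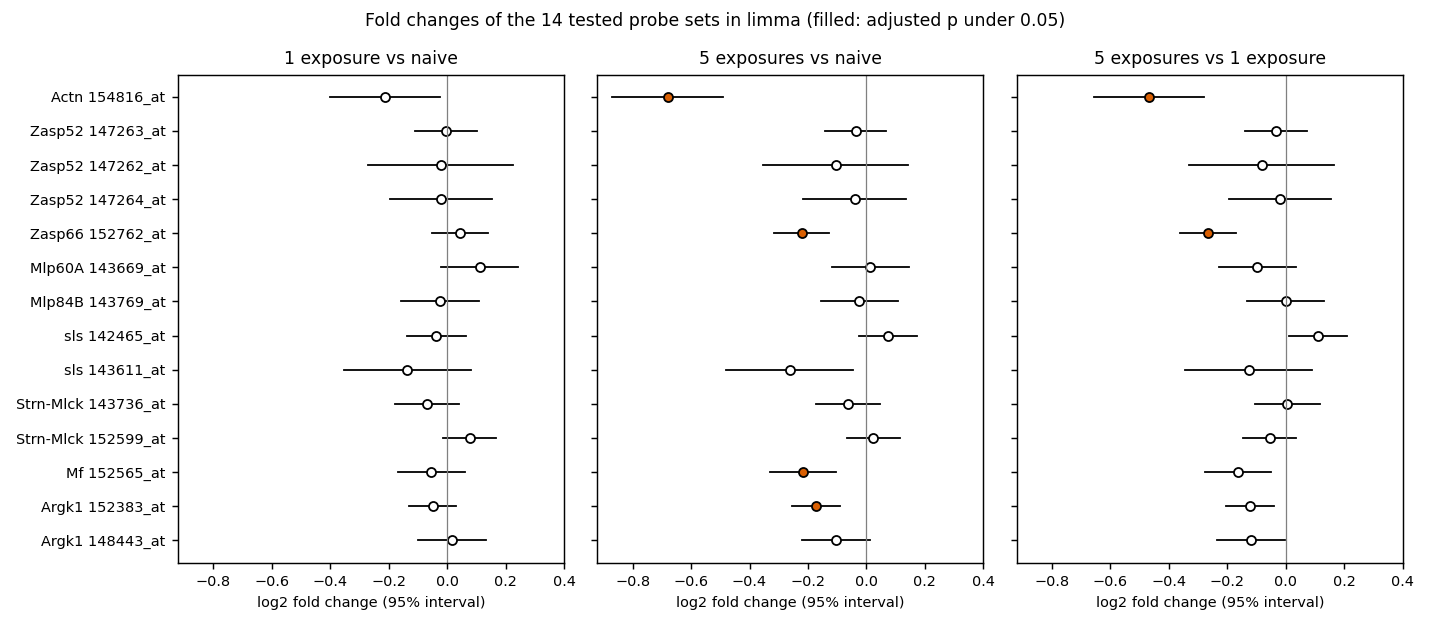
Log2 fold change (points) with its 95% interval (lines) for the 14 tested probe sets in each of the 3 comparisons, filled where the limma adjusted p was under 0.05. The filled points are Actn at -0.68, Zasp66 at -0.22, Mf at -0.22 and Argk1 at -0.17 for 5 exposures against naive, and Actn at -0.47 and Zasp66 at -0.27 for 5 exposures against 1.

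Counted over the members, 4 of 14 tested probe sets were lower after 5 exposures than in naive heads and none was higher, where 6.33% of all tested probe sets were called in either direction and 3.85% were called lower. Between 5 and 1 exposures 2 of 14 were called, both lower, against 8.5% of all probe sets in either direction and 4.77% lower. After 1 exposure 0 of 14 were called in limma, against 4.42% of all in either direction and 1.86% lower, and 1 of the 14, Actn, had an unadjusted limma p under 0.05. Groups did not overlap, with 5 exposures lower, for 1 of 14 against naive (2.09% of all) and for 3 of 14 against 1 exposure (3.01% of all). The members were chosen with earlier results of these data known, so an excess over these shares is not an independent result. The median log2 fold change of the 14 was -0.08 after 5 exposures and -0.02 after 1, where all 9317 probe sets had 0.01 each time. The comparisons of 5 exposures and of 1 exposure with naive share the naive arrays, and whether the exposure groups differed is tested by the direct comparison of 5 with 1.

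**Figure D3:**
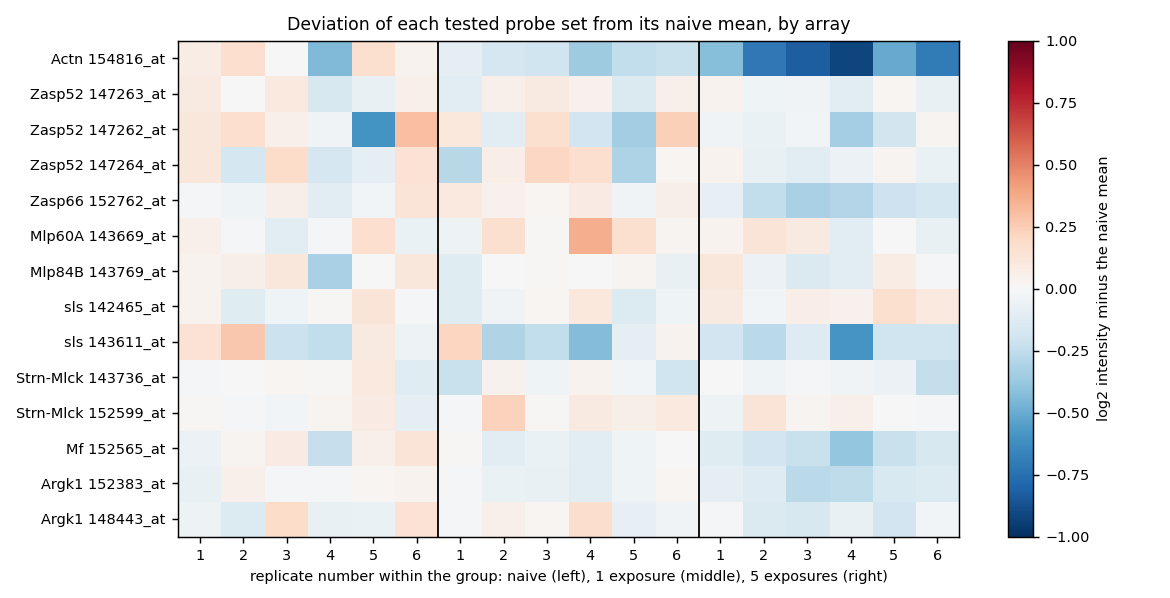
Log2 intensity of each tested probe set (rows) minus its naive mean on each array (columns, replicates 1 to 6 of each group), from blue (lower) to red (higher). The Actn row is blue across all 5-exposure arrays, and naive replicate 4 is the bluest naive array for Actn and Mlp84B.

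Arrays of 1 group differed in the mean level of the members. Averaged over the 9 genes, each by the probe set with the highest mean, naive replicate 4 lay 0.14 log2 below the naive mean and the other 5 naive arrays between 0.01 and 0.06 above it. The 5-exposure arrays lay from -0.24, in replicate 4, to -0.05, and the 1-exposure arrays from -0.07 to 0.00. Naive replicate 4 was the lowest naive array for 6 of the 14 tested probe sets and the highest for none. Of the 5-exposure arrays, replicate 4 was lowest for 6 and replicate 1 highest for 9. Among the 1-exposure arrays replicate 5 was lowest for 6, and replicates 1 and 4 for 4 each. Replicate 4 was the lowest array of every group for Actn, Mf and sls 143611_at, and for no other tested member probe set. The 4 calls against naive were made also without naive replicate 4.

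Other genes of the sarcomere were read from lists, with 1 probe set per gene. The lists were chosen with earlier results of these data known, and 3.85% of all tested probe sets were called lower after 5 exposures. In the thick filament list 4 of 5 tested genes were lower after 5 exposures and none was higher: Prm, the paramyosin gene, at 0.560-fold (0.480 to 0.653), the myosin light chain genes Mlc1 at 0.591-fold (0.499 to 0.701) and Mlc2 at 0.716-fold (0.634 to 0.807), and the projectin gene bt, at 0.807-fold. Of 9 thin filament genes 5 were lower and none higher, led by up, the troponin T gene, at 0.637-fold (0.563 to 0.721), the troponin C gene TpnC41C at 0.727-fold (0.658 to 0.802) and the tropomyosin gene Tm2 at 0.706-fold (0.620 to 0.804). The limma adjusted p of these 7 genes lay between 3.36e-05 and 0.0173. Act79B and Act87E were called as well, on probe sets whose names mark probes shared within a gene family, so that the actin genes cannot be told apart there. The uncalled gene of the thick filament list was the cytoplasmic myosin light chain gene Mlc-c, at 1.04-fold (limma adjusted p = 0.861). Of the 8 genes in that list 6 had a probe set and 5 were tested. The median log2 fold change was -0.48 in the thick filament list and -0.26 in the thin filament list, against -0.06 over the 9 Z-disc and accessory genes. Of the 4 called members only Actn, at -0.68, had a log2 fold change beyond those of the called genes bt (-0.31), Act79B (-0.35) and Act87E (-0.26), while the uncalled filament gene tmod, at -0.22, was near Zasp66 and Mf.

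Of 11 other tested genes listed for the Z-disc, the titin family and filament ends, only bt was lower after 5 exposures (limma adjusted p = 0.0173), and none was higher. This list was mixed and also held tn, Mp20 and unc-45. The list's median was -0.05. Of the 2 genes next in p, tn had a fold of 0.918 (0.865 to 0.975, limma adjusted p = 0.0926) and the tropomodulin gene tmod 0.856 (0.763 to 0.961, limma adjusted p = 0.116). Zasp67, the remaining Zasp gene, was at 1.01-fold (limma adjusted p = 0.957). Unlike any member, cher, the gene of the actin cross-linker filamin, rose 1.28-fold after 1 exposure (1.21 to 1.36, limma adjusted p = 6.93e-06) and was at 0.967-fold after 5 (limma adjusted p = 0.642). Between 5 and 1 exposures cher was lower, at 0.754-fold (0.709 to 0.801, limma adjusted p = 8.96e-07).

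Among 7 genes listed for muscle calcium handling and excitation, only SERCA, the calcium pump of the sarcoplasmic reticulum, was lower after 5 exposures, at 0.734-fold (0.659 to 0.817, limma adjusted p = 0.000512). That list was mixed and also held Dg, Dys and CASK. The integrin adhesion genes that attach muscle to tendon gave 0 calls of 9 in limma in each comparison. After 5 exposures their median log2 fold change was 0.01. Smallest in p was Pax, with a fold of 0.896 (0.829 to 0.968, limma adjusted p = 0.0925), and the talin gene rhea had 0.895 (0.791 to 1.01, limma adjusted p = 0.356). Of 3 tested regulators of muscle fate and splicing none was called against naive, and mbl, the muscleblind splicing factor gene, was higher after 5 exposures than after 1, at 1.15-fold (1.05 to 1.26, limma adjusted p = 0.0455).

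**Figure D4:**
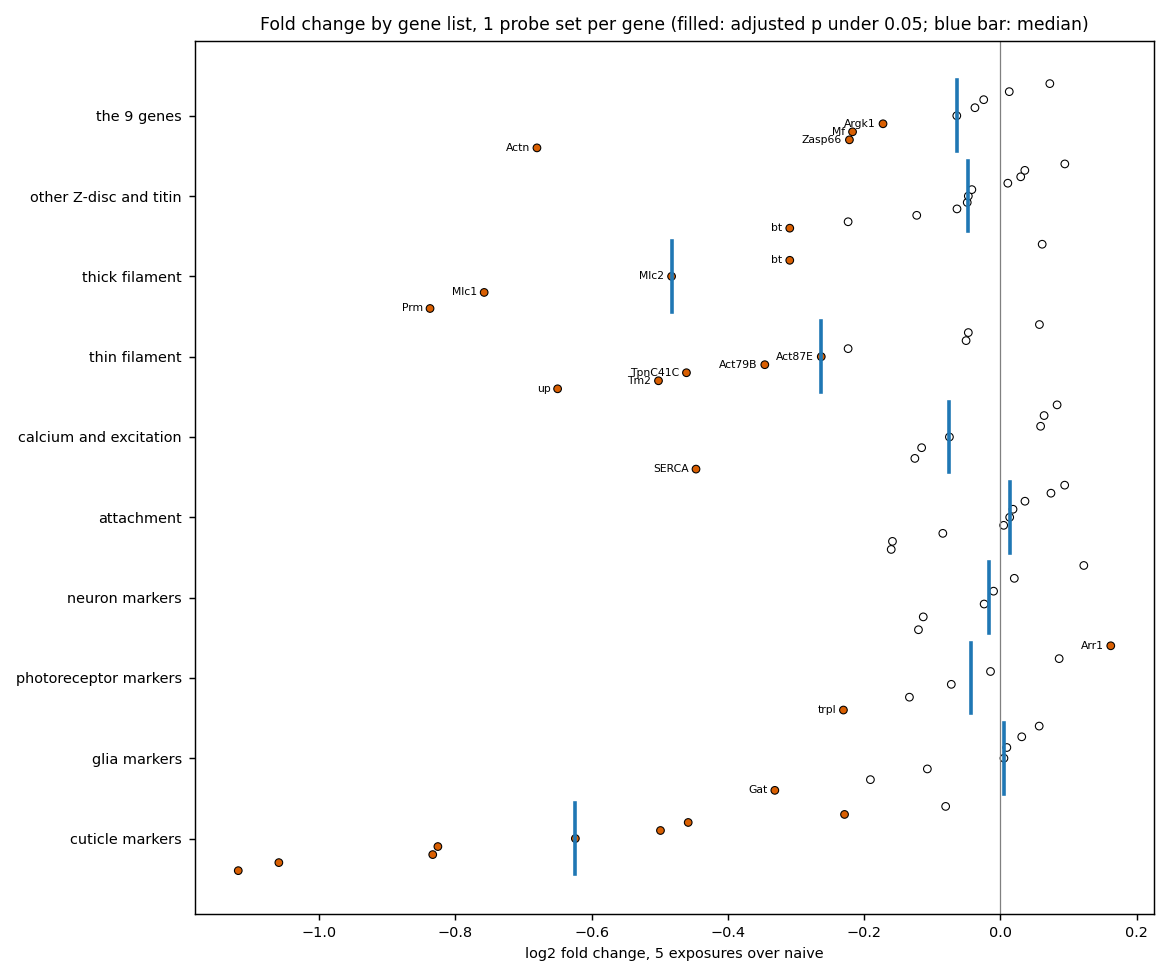
Log2 fold change of 5 exposures over naive for each tested gene (points, 1 probe set per gene) in 10 lists, filled where the limma adjusted p was under 0.05, with the list's median as a blue bar. Members spread from Actn at -0.68 to sls at 0.07, the thick filament median lies at -0.48 and the cuticle median at -0.62.

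Markers of other tissues of the head gave the following counts after 5 exposures. Over all tested probe sets 6.33% were called in either direction and 3.85% lower, and these lists were chosen with earlier results of these data known. No neuron marker of 6 was called, 1 photoreceptor marker of 6 was lower (trpl) and 1 higher (Arr1), and 1 glia marker of 7 was lower (Gat). Of 8 fat body markers 3 were higher (Lsp2, apolpp and Lsd-1), and 1 haemocyte marker of 4 was lower (NimC4). Of 9 cuticle markers 8 were lower and none higher, with a median log2 fold change of -0.62. None of these lists had a marker at 0, though 2 of the 7 haemocyte markers with a probe set had naive means under the floor and NimC4 was under it after 5 exposures. All 6 photoreceptor markers and 6 of 7 neuron markers with a probe set passed the limit on low signal. The summed intensity of the 9 cuticle markers ran from 7338 to 11527 over the naive arrays, from 6783 to 10156 after 1 exposure and from 3898 to 6754 after 5 exposures, and the sum over the 9 members from 9804 to 11113, from 10231 to 10565 and from 8856 to 10151. Naive replicate 4 was also the lowest naive array for the cuticle markers, 0.29 log2 below the naive mean, where the next lowest was 0.02 below, and for the thick and the thin filament lists. In both filament lists replicate 4 was the lowest array of the 1-exposure and 5-exposure groups as well. For the cuticle markers replicate 4 was lowest after 1 exposure and replicate 5 after 5 exposures. The part of cuticle or of tissue makeup in the fall of Actn, Zasp66, Mf and Argk1 was not tested.

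**Figure D5:**
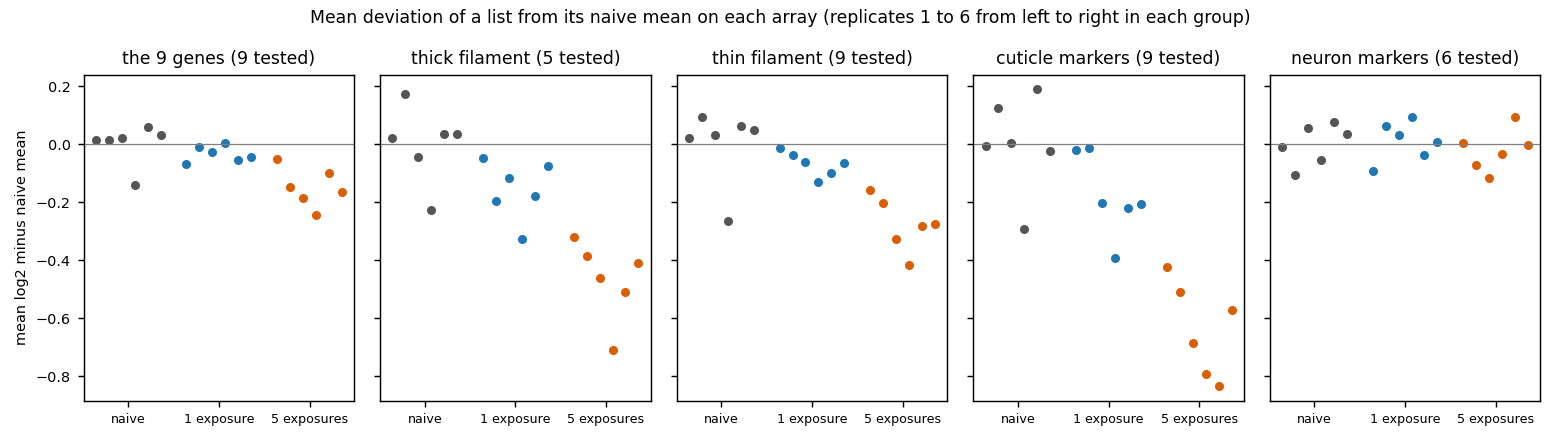
Mean log2 deviation from the naive mean on each array for the 9 genes, the thick and thin filament lists, the cuticle markers and the neuron markers, by group, with replicates 1 to 6 from left to right. Naive replicate 4 lies lowest among the naive arrays in the first 4 panels, and the 5-exposure arrays lie below the naive mean in those panels while the neuron markers scatter around it.

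The genes most like the members were sought by Pearson correlation over the 18 arrays with the mean of the 9 genes' standardised log2 values, among 7457 other genes. The top 5 were Tm2 (r = 0.88), Act87E (0.87), Act79B (0.86), CG5539 (0.86) and HisT (0.84), the first 3 being thin filament genes, of which the 2 actin genes rest on probe sets that can share probes. With each group's mean subtracted, so that only the differences between replicates remained, the top 5 were INPP5E (0.86), Tm2 (0.83), Act87E (0.80), Act79B (0.79) and blw (0.78), an ATP synthase subunit gene. Tm2 and the 2 actin probe sets, which are not independent of each other, were among the top 5 both times. The members themselves did not share 1 profile. Over the 18 arrays, against the mean of the other 8 members, r was 0.76 for Actn, 0.68 for Mf and 0.65 for Zasp66. It was 0.54 for Mlp84B, 0.52 for Zasp52 and Argk1, 0.19 for Strn-Mlck, 0.16 for Mlp60A and -0.22 for sls. With each group's mean subtracted, r was 0.78 for Mlp84B, 0.71 for Actn, 0.58 for Zasp66, 0.56 for Mf and 0.54 for Zasp52. Lower values were found for Argk1 (0.24), sls (0.15), Mlp60A (0.13) and Strn-Mlck (-0.01). The 18 points share their arrays and their normalization, and these values are a description.

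On the arrays themselves, medians lay between 125.4 and 129.3, and 4 control transcripts gave a ratio of 3′ to 5′ signal, used to judge how far the labelled RNA extends. The log2 ratio for 18S rRNA ran from -3.42 to -2.39 in naive, from -2.35 to -1.68 in 1-exposure and from -3.29 to -1.57 in 5-exposure arrays, and that for actin from 1.88 to 2.10, from 2.00 to 2.32 and from 2.05 to 2.43. For 18S rRNA the naive and 1-exposure ranges did not overlap, and every other pair of groups overlapped for both controls. The group means were -2.92, -1.99 and -2.13 for 18S rRNA, 2.01, 2.18 and 2.21 for actin, 1.30, 1.30 and 1.30 for GAPDH and 0.54, 0.57 and 0.51 for eIF-4a, in the order naive, 1 and 5 exposures. Their part in the member values was not tested. Array numbers in the titles run consecutively through the groups, so array order and group cannot be told apart.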

How the data were processed

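The deposited table holds a linear intensity for each probe set on each array, from one-colour Affymetrix arrays hybridised with biotinylated cRNA from 6 µg of total RNA, per the labels' protocols. The values were already summarised and brought to a common scale between arrays, since the array medians are nearly equal, by software that the labels do not name. There were no detection calls.

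Values under the pooled 20th percentile of non-control probe sets (57.9) were raised to this floor before the log2 transform. The 44 control probe sets and probe sets whose mean lay below 6.42 on the log2 scale (an intensity of 85.8) were left out. One model with 3 group means was fitted to the 18 arrays with limma 3.58.1 (lmFit, eBayes, 15 residual degrees of freedom) in R 4.3.3. On data simulated for 5 exposures against naive over 9317 probe sets, recovery was 74% for 50 probe sets given a 1.2-fold change and 100% for each larger size, from 1.5-fold to 3-fold, with 11 false calls. The number of arrays limits the precision.

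The members and gene lists were chosen with earlier results of these data known. Every member probe set is given. Named examples from the lists are up to 3 genes with the smallest p for 5 exposures against naive. Also named, after their values were seen, were cher, mbl, rhea, Zasp67, Mlc-c, CASK, Mp20, unc-45 and the remaining called genes. Symbols were updated through the gene identifiers of the RefSeq table of Release 6. The list of other Z-disc genes also held Cap-G, a condensin gene listed in error, which was not tested because of its low signal. Genes that 2 lists hold (bt, tmod, Mp20, fln, Unc-89) count in both. No sequence was printed because none was given for these genes or probes. The fits were repeated with quantile-normalized or median-centred arrays, without the filter or with it raised to the median, and with a pseudocount of 16 or a lower floor (24.9) in place of 57.9. Further fits used limma's trended, robust prior, array weights, the replicate number as a block, or the arrays of just the groups being compared, and single arrays were left out one by one. Plots were drawn with matplotlib 3.10.9 under Python 3.11.15, and tables were handled in pandas 2.3.3 with numpy 2.4.6.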

Additional observations from a re-analysis of the deposited data

Results flagged for a closer look

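In 4 of 51 groups of 6 arrays (17 probe sets in 3 groups) 1 array lay apart from the rest by Dixon's gap-to-range criterion at the 95% level, which chance alone meets in about 1 of 20 groups. Naive replicate 4 read 583.9 for Actn, with the other naive arrays from 793 to 889.9. The same array read 1045.9 for Mlp84B, with the others from 1313 to 1415. Five-exposure replicate 4 read 97.3 for the sls probe set 143611_at, with the others from 121.8 to 134.6. Five-exposure replicate 6 read 358 for the Strn-Mlck probe set 143736_at, with the others from 406 to 422.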

How the results depend on the processing

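Under the 10 alternatives that kept all replicates, the calls on Actn, Zasp66, Mf and Argk1 after 5 exposures and on Actn and Zasp66 between 5 and 1 exposures were made each time. The replicate block changed the count between 5 and 1 exposures from 2 to 4, adding Mf (limma adjusted p = 0.0196) and Argk1 (0.0427), and added sls 143611_at after 5 exposures (0.0481). Of the 18 same-numbered pairs of arrays, 8 had deviations from the group means that correlated over 0.1 (range -0.24 to 0.52). These were 4 of 6 between 1 and 5 exposures and 2 of 6 in each other comparison. The replicate 6 arrays correlated in every comparison (0.40, 0.45 and 0.33), and those of replicate 1 in none (-0.16, 0.05 and -0.05). The numbers are thus not shown to pair samples, and an effect shared by same-numbered arrays was not tested. With 1 array left out, 0 to 1 members were called after 1 exposure, 3 to 4 after 5 exposures and 2 to 3 between 5 and 1. Values near 0 that were never called changed sign. Mlp84B between 5 and 1 exposures was at 0.030 with quantile normalization, 0.0082 with median centring and -0.028 to 0.024 with 1 array left out. With array weights Argk1 148443_at after 1 exposure was at -0.0052 and Strn-Mlck 143736_at between 5 and 1 at -0.00070. With 1 array left out these ran from -0.014 to 0.054 and from -0.025 to 0.040, Mlp60A after 5 exposures from -0.010 to 0.046, Zasp52 after 1 exposure from -0.034 to 0.025 (147263_at), -0.14 to 0.043 (147262_at) and -0.066 to 0.037 (147264_at), and Zasp52 147264_at between 5 and 1 from -0.078 to 0.025. The cause was not tested.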
